A study of Homo sapiens with 44 samples.

Results

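The CXCL8 locus was examined in a bulk ATAC-seq data set, in which a transposase cuts accessible chromatin and tags the cut ends for sequencing. The locus comprises the 44 peaks, of 407383 in the table, to which the deposited row names give CXCL8 as the gene, and all 44 passed the filter on low values. Every library came from Ccd18-Co, a line of human colonic fibroblasts, so 1 cell line stands for all cells here. By the study's methods, cells spent 72 h without serum and a further 24 h with 1 cytokine or with none (unstimulated). Cytokines were IL-1β at 0.1 ng/ml, or TNF, OSM (oncostatin M), IL-17A, IL-6, IL-13, IL-22, IFNα, IFNγ or TGF-β1 at 10 ng/ml. These are the doses in the sample labels, and the study's text also gives a lower IL-1β dose in places. Each of the 11 groups had 4 libraries, and plots write IL1B, IFNA, IFNG and TGFB1 for IL-1β, IFNα, IFNγ and TGF-β1. The locus had been chosen by its TNF and IL-1β values, which are therefore given below as a description without a test. Tests are given for the other cytokines against unstimulated cells, and for IL-1β against TNF.

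CXCL8 encodes interleukin-8, a CXC chemokine that binds the receptors CXCR1 and CXCR2 and draws neutrophils into inflamed tissue. TNF and IL-1β act through separate receptors whose adaptors converge on the kinases that release NF-κB and activate AP-1, and both factors have well-studied sites just upstream of the CXCL8 start. The gene sits at one end of a cluster of CXC chemokine genes on chromosome 4.

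The promoter is shown because both factors' strings lie in it and because it is the peak with responses in opposite directions. It is printed from RefSeq (GRCh38.p14), chr4:73740319-73740568, plus strand, 5′ to 3′, and ends at the last base before the transcript. Capitals mark matches, on either strand, to the AP-1 string TGANTCA and the NF-κB string GGNNNTTCC.
CXCL8 promoter: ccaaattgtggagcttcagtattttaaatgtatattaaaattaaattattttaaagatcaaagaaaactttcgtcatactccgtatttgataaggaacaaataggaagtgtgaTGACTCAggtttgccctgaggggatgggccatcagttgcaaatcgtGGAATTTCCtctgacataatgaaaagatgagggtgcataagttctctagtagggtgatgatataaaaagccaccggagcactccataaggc
The AP-1 match began 137 bases and the NF-κB match 91 bases before the transcript. Of 35116 RefSeq promoters cut to the same 250 bases, 6.57% held the AP-1 string, 17.1% held the NF-κB string and 1.03% held both.

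Next are 300-base stretches of 2 distal peaks, read from hg38 on the plus strand with the same capitals. The first, chr4:73718770-73719069, belongs to the peak at −21.549 kb (distances run from the start of the transcript to a peak's centre, upstream negative), the one most raised by OSM. The second, chr4:73722020-73722319, belongs to the peak at −18.420 kb, which had the largest TNF and IL-1β changes outside the gene and its near 3′ flank.
Peak at −21.549 kb: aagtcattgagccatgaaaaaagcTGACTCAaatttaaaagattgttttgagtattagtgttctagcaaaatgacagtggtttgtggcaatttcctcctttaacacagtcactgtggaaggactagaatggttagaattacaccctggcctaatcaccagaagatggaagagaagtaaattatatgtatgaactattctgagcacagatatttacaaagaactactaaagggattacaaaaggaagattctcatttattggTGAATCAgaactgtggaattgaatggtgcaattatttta
Peak at −18.420 kb: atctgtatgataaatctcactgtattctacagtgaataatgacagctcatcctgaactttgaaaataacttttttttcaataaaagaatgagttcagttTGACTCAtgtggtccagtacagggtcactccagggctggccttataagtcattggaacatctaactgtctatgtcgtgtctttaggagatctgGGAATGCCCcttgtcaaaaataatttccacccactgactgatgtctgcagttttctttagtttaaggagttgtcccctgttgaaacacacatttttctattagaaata
The peak at −21.549 kb held 2 AP-1 matches and no NF-κB match in its whole length. The peak at −18.420 kb held 1 of each.

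Levels are coverage per Mb, the read coverage summed over a peak per megabase (Mb) of coverage summed over all peaks of that library, scaled for composition. Coverage over all peaks ran from 149 Mb in IL-6 replicate 4 to 823 Mb in IFNα replicate 2. The value of 1 read was taken as 75 bases, the commonest value above 0 in the table, and a library with 3 or fewer such reads in a peak is called at the floor. Changes are differences of group means of log2(coverage per Mb + 0.5) ± SE from limma over all 44 libraries, with n = 4 per group, and they understate changes at peaks of low coverage. Pairs of libraries of 1 group correlated with r between 0.770 and 0.930. Promoters of fibroblast genes such as COL1A1 (25.1 coverage per Mb on average over libraries) and PDGFRB (16.4) were open, though that of LUM was not (0.548), and that of PRRX1 stood at 4.06. Among genes of other cell types the epithelial gene KRT8 (4.58) and the endothelial gene ERG (3.01) were the most open, and the endothelial gene PECAM1 was the least (0.423). Over the 8 of 11 fibroblast genes with a promoter peak, the mean level was between 8.22 and 14.3 in single libraries, and over the epithelial list (2 of 6 genes with such a peak) it was between 1.83 and 4.54. Leukocyte genes (2 of 6) ran from 0.700 to 3.31 and endothelial genes (5 of 5) from 0.515 to 2.14.

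The transcript runs from 73740569 to 73743716 on the plus strand of chromosome 4 (hg38, GENCODE) and has 4 exons over 3.148 kb. Peak centres ran from −50.321 to 41.057 kb. By the deposited classes, 37 of the 44 peaks were distal, 4 exonic, 2 promoter and 1 intronic. The closest peaks assigned to other genes were a RASSF6 peak at −60.454 kb and a CXCL6 peak at 74.759 kb. Tiled along the gene were 9 peaks, from the promoter peak over the transcript start (−0.001 kb, 73740318 to 73740818) through introns, coding exons and the 3′ UTR to a distal peak at 4.847 kb. The peak at 0.536 kb was wholly intronic, those at 1.060 and 1.639 kb spanned 136 and 85 coding bases, and those at 2.212 and 2.890 kb lay wholly in the 3′ UTR.

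In unstimulated cells the locus was mostly closed. Summed over the 44 peaks, coverage was 69.3 ± 5.32 per Mb (SD, n = 4), and 81.6% of it came from the 20 peaks more than 1 kb upstream. The promoter peak stood at 2.24 ± 0.556, beside a median of 2.96 over all 29109 promoter-class peaks. The most open member was distal, at −35.863 kb, with 16.2, 21.0, 18.5 and 13.4 in the 4 unstimulated libraries. In most of the gene body levels were at or near the floor: at 2.212 kb, in the 3′ UTR, the 4 libraries held 0, 0, 0.0485 and 0.243. The intronic peak at 0.536 kb held more, with 0.423, 2.04, 0.470 and 0.707.

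**Figure D1:**
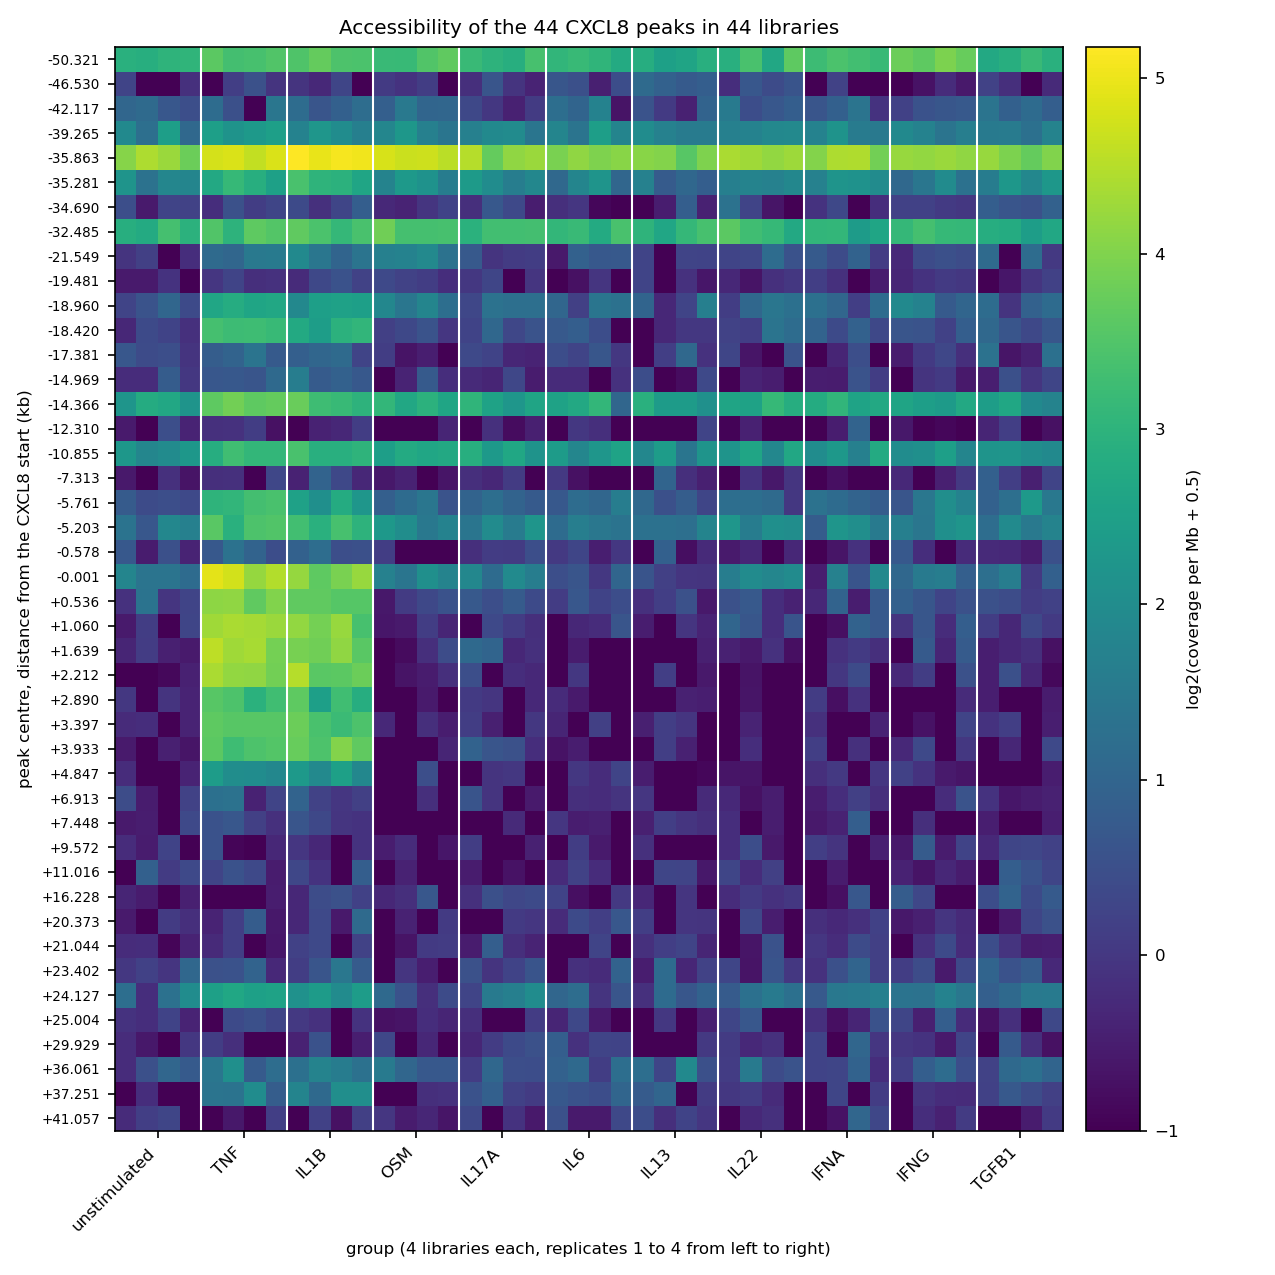
Each row is 1 of the 44 CXCL8 peaks, labelled by the distance of its centre from the transcript start in kb, each column 1 of the 44 libraries, and colour gives log2(coverage per Mb + 0.5). A block of 9 peaks from −0.001 to 4.847 kb is bright in the 8 TNF and IL1B libraries and dark in the other 36, and the row at −35.863 kb is bright in every library.

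Under both TNF and IL-1β the same 20 CXCL8 peaks were higher by the cut-off used throughout (an adjusted p below 0.05), and none was lower. That cut-off serves here only to sort the peaks for description, and these 20 are called raised below. Over all 407156 tested peaks, 2.68% were raised and 1.46% lowered by TNF, and 1.44% were raised and 1.75% lowered by IL-1β. The locus was selected on these values, so the counts are no test and nothing is read from them. Of the 20 raised peaks, 14 were distal by class, 9 lay over 1 kb upstream, 9 between the start and 5 kb, and 2 beyond. At 12 of the 20, all 8 TNF and IL-1β libraries stood above all 36 others. The 20 were sorted by these same libraries and no share over all peaks was worked out, so this count too is only a description. In bulk libraries, more responding cells and a larger change per cell cannot be told apart.

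The promoter peak held 29.7, 26.3, 17.7 and 21.4 coverage per Mb in the TNF libraries and 17.9, 12.0, 14.7 and 18.2 in the IL-1β libraries. The unstimulated libraries held 3.04, 2.09, 2.10 and 1.74, so neither cytokine group overlapped them. The group means were 10.6 times (TNF) and 7.01 times (IL-1β) the unstimulated mean, with log2 changes of 3.14 ± 0.30 and 2.57 ± 0.30. The other promoter-class peak, at −0.578 kb, was not among the raised peaks. Its means were 1.36 under TNF, 1.24 under IL-1β and 0.623 in unstimulated cells.

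On the log2 scale, changes were larger inside the gene than at its promoter. In coverage, the promoter peak had the highest means of the stretch from the start to 5 kb, 23.8 under TNF and 15.7 under IL-1β. The peak at 1.639 kb (73741958 to 73742458), over coding exon and intron, ran from 14.4 to 23.0 under TNF, from 11.7 to 17.4 under IL-1β and from 0.186 to 0.579 without cytokine. Its group means spanned 5.16 on the log2 scale, the widest range of any tested peak of the genome. At 2.212 kb the TNF libraries held 20.4, 17.6, 17.2 and 14.0 and the IL-1β libraries 22.0, 11.6, 11.8 and 13.4. All 4 unstimulated libraries were at the floor there, so no ratio is given. The fitted changes, 4.97 ± 0.39 for TNF and 4.70 ± 0.39 for IL-1β, were the largest of the locus for each cytokine.

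Opening ran on past the 3′ end of the transcript. The distal peak at 3.933 kb (73744252 to 73744752) held 11.9, 9.05, 10.4 and 11.0 under TNF and 12.9, 10.4, 15.8 and 12.3 under IL-1β. Unstimulated libraries held at most 0.227. Over the 9 peaks from the start to 5 kb, changes lay between 2.72 and 4.97 for TNF (median 4.04) and between 2.57 and 4.70 for IL-1β (median 3.92). This short stretch carried 6.88% of the coverage of the locus in unstimulated cells, 48.5% under TNF and 44.4% under IL-1β. Coverage summed over it was 4.77 ± 0.952 per Mb in unstimulated cells, 131 ± 14.6 under TNF and 107 ± 15.4 under IL-1β.

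**Figure D2:**
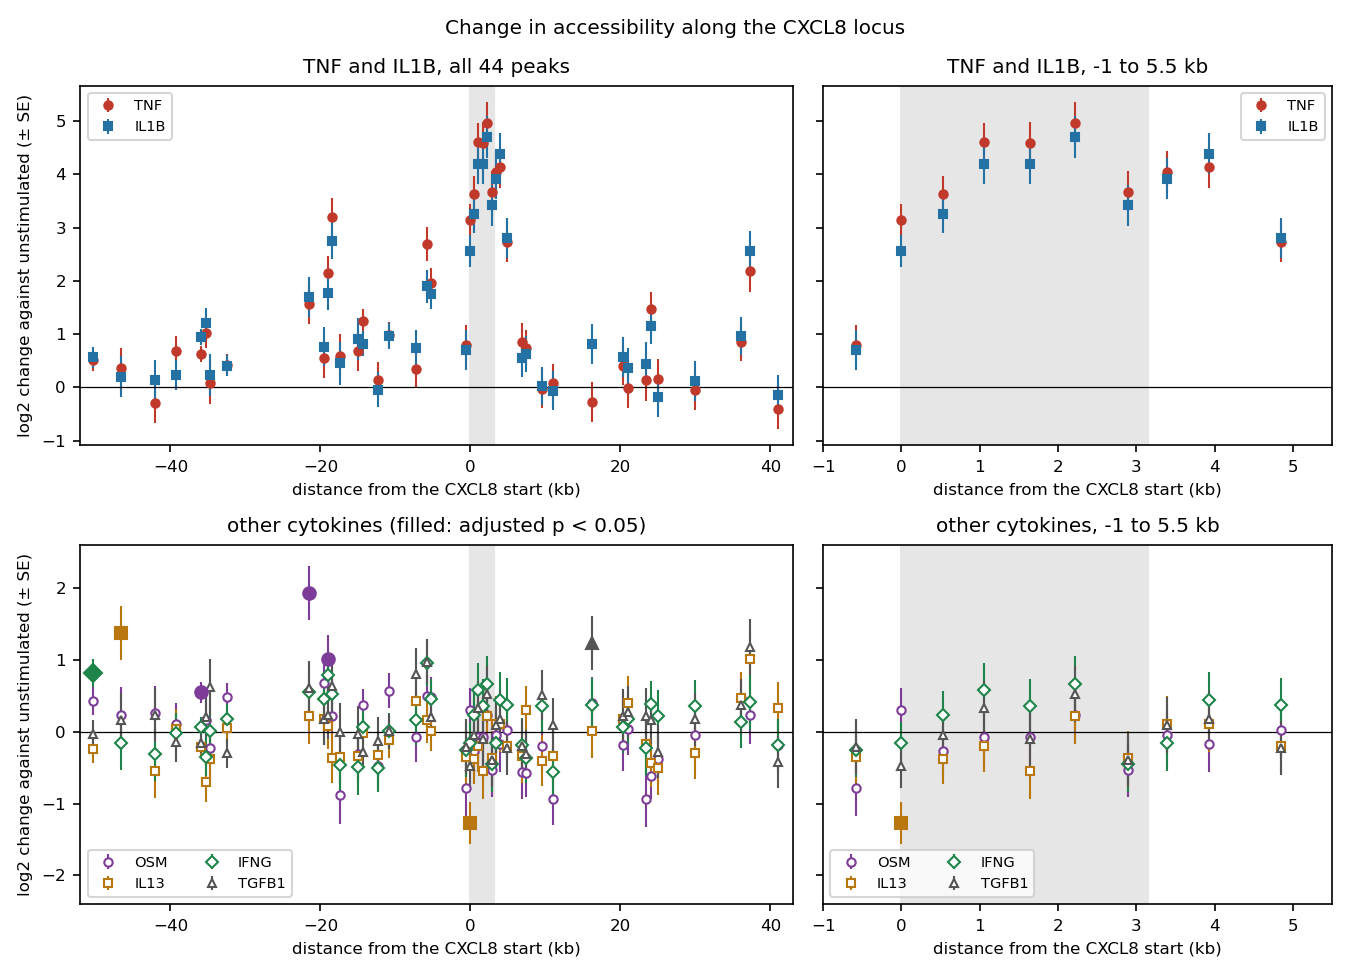
Log2 change against unstimulated cells (± SE, n = 4 per group) for each CXCL8 peak against its distance from the transcript start in kb, for TNF and IL1B above and OSM, IL13, IFNG and TGFB1 below, with the transcript in grey and the right panels enlarged from −1 to 5.5 kb. TNF and IL1B points reach 4.97 and 4.70 at 2.212 kb, and filled points below mark the 7 changes with an adjusted p below 0.05.

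Upstream, 9 peaks rose under both cytokines, in 3 groups and 2 single peaks. At −18.420 kb the TNF libraries held 9.72, 8.88, 9.02 and 8.44 and the IL-1β libraries 6.20, 4.89, 7.30 and 7.88. Unstimulated libraries held 0.306 to 0.819, below every library of either cytokine. Changes were 3.20 ± 0.35 for TNF and 2.76 ± 0.35 for IL-1β. Its neighbour at −18.960 kb, with an NF-κB match and no AP-1 match, rose by 2.14 ± 0.33 and 1.78 ± 0.33, and the peak at −21.549 kb by 1.57 ± 0.38 and 1.70 ± 0.38.

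A pair nearer to the gene, at −5.761 and −5.203 kb, rose by 2.69 ± 0.32 and 1.97 ± 0.28 under TNF and by 1.89 ± 0.32 and 1.76 ± 0.28 under IL-1β. Single peaks at −14.366 and −10.855 kb changed less, by 1.24 ± 0.23 and 0.99 ± 0.24 under TNF. The most open member, at −35.863 kb, held 26.8, 28.0, 24.1 and 27.8 under TNF and 35.7, 31.0, 33.7 and 32.5 under IL-1β. It was open in every group, and its changes were the smallest for TNF among the 20, at 0.63 ± 0.15, and the second smallest for IL-1β, at 0.94 ± 0.15. The flanking peak at −35.281 kb rose by 1.02 ± 0.27 and 1.21 ± 0.27.

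Beyond 5 kb downstream, 2 of 14 peaks rose. At 37.251 kb, where an annotated pseudogene overlaps the peak, the TNF libraries held 2.09, 2.07, 3.50 and 1.27, the IL-1β libraries 2.97, 1.67, 3.64 and 3.68, and 3 of 4 unstimulated libraries 0. The peak at 24.127 kb rose by 1.47 ± 0.33 under TNF and 1.14 ± 0.33 under IL-1β.

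Members on both sides of the threshold were as follows. For TNF the last peak inside it was at −35.281 kb, with a change of 1.02, and the first outside at −50.321 kb, with 0.50. For IL-1β these were the peak at 24.127 kb (1.14) and again that at −50.321 kb (0.56). Over the 24 other members, changes ran from −0.41 to 0.85 for TNF (18 above 0) and from −0.18 to 0.96 for IL-1β (20 above 0). Median change over all 44 peaks was 0.76 for TNF and 0.81 for IL-1β, beside −0.02 and 0.01 over all tested peaks. By size of change, 5 of the 10 most raised peaks of the genome under TNF and 7 of 10 under IL-1β were CXCL8 peaks. These all lay close together, between 0.536 and 3.933 kb, and so are not separate observations. The locus was chosen on these values, so nothing is read from the ranks.

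**Figure D3:**
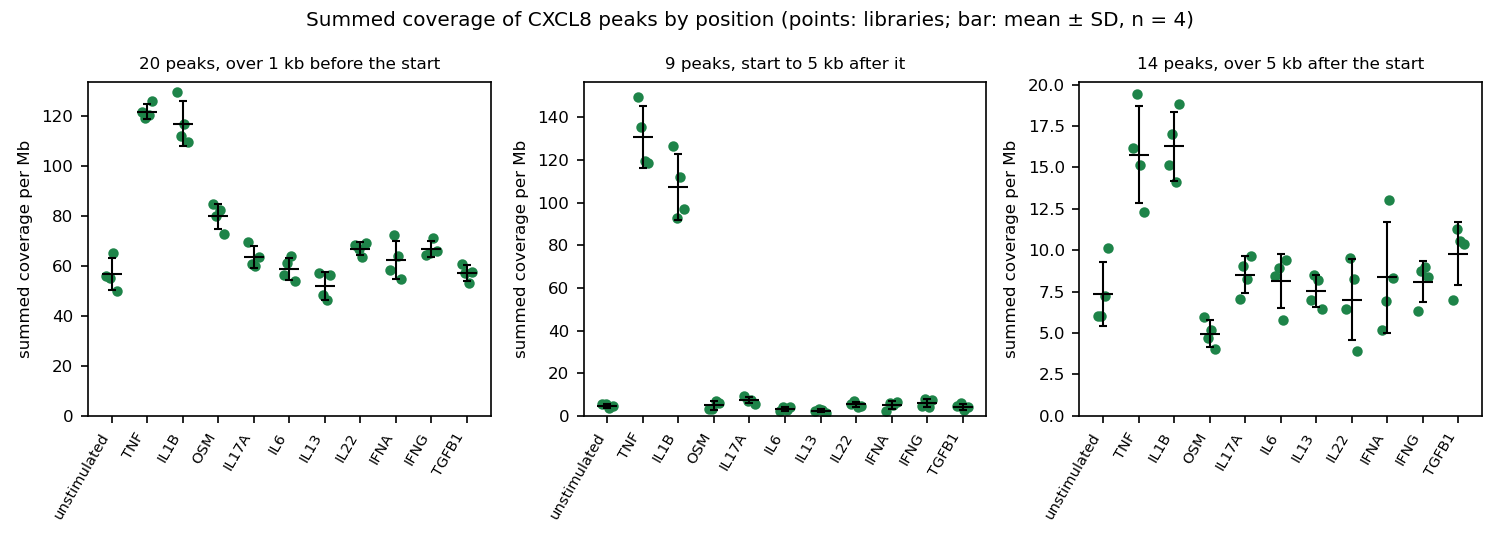
Coverage per Mb summed over the CXCL8 peaks over 1 kb before the start (20 peaks, left), from the start to 5 kb (9 peaks, middle) and further downstream (14 peaks, right). Points are libraries and bars mean ± SD (n = 4). In the middle panel TNF (mean 131) and IL1B (mean 107) stand apart from the other 9 groups, which have means from 2.37 to 7.37, and in the left panel OSM (mean 79.9) is the next highest.

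The raised peaks differed in the strings they held. Of the 11 raised peaks outside the stretch from the start to 5 kb, 8 held the AP-1 string and 5 the NF-κB string. Within that stretch, 1 of 9 held the AP-1 string, at the promoter, and 3 of 9 the NF-κB string. Among the 24 other members 8 held the AP-1 string and 7 the NF-κB string, and over all peaks of the table the shares were 25.7% and 26.0%. The C/EBP string TTGCNNAA was in 9 of the 20 raised peaks and 25.8% of all peaks. GC content had a median of 34.9% over the raised peaks, 39.6% over the other members and 45.1% over all peaks. A match is a description of the letters and was not tested as a binding site.

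IL-1β and TNF were compared at unequal doses, 0.1 and 10 ng/ml. No CXCL8 peak differed by the limma test at an adjusted p below 0.05, with 0.218% of all tested peaks higher and 1.1% lower under IL-1β. Before adjustment, 2 CXCL8 peaks were higher and 1 lower under IL-1β at p below 0.05. The peak at −5.761 kb had 5.27, 3.69, 6.45 and 4.25 under IL-1β and 7.60, 7.90, 9.62 and 10.2 under TNF, without overlap. Its difference was −0.80 ± 0.32 (95% interval −1.42 to −0.18, adjusted p = 0.281 by limma). A fit on those 8 libraries alone called it, with adjusted p = 0.00904, and the promoter peak too (difference −0.58, adjusted p = 0.00331).

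At the promoter peak the main difference was −0.58 ± 0.30 (95% interval −1.16 to 0.01, adjusted p = 0.526 by limma), with overlapping libraries. Without overlap of libraries, TNF was also higher at −18.960 kb (difference −0.36), −18.420 kb (−0.45), 1.060 kb (−0.40, 95% interval −1.13 to 0.33) and 24.127 kb (−0.33), and none of these passed. The share of all tested peaks without overlap was not worked out, so no direction for the locus is read from these peaks. At 2.212 kb the difference was −0.26 (−1.03 to 0.50), and at 3.933 kb it was 0.26 (−0.50 to 1.02). The intervals thus include differences of 1 log2 unit in the gene body. At −35.863 kb IL-1β libraries were all above TNF libraries, with a difference of 0.31 (0.02 to 0.60, adjusted p = 0.449 by limma). The largest difference upward was at 16.228 kb, 1.09 ± 0.37 (0.35 to 1.82, adjusted p = 0.153 by limma), where 3 of 4 TNF libraries held 0. There too all IL-1β libraries were above the TNF libraries.

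OSM, an IL-6 family cytokine that signals largely through STAT3, raised 3 CXCL8 peaks and lowered none, all in the distal upstream region. Over all tested peaks it raised 4.12% and lowered 1.05%. At −21.549 kb OSM libraries held 2.71, 2.81, 3.26 and 2.01 and unstimulated libraries 0.447, 0.625, 0 and 0.380, without overlap. The change was 1.94 ± 0.38 (adjusted p = 7.97e-05 by limma), and it passed in every leave-one-out fit (1.69 to 2.08). By group mean OSM was the highest of the 11 groups there, although its libraries overlapped those of IL-1β and TNF. IL-22 libraries, from 0.708 to 1.78, were also all above the unstimulated ones, with a change of 0.85 that did not pass (adjusted p = 0.578 by limma).

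Both other OSM calls were at peaks that TNF and IL-1β raised as well. At −35.863 kb OSM libraries held 27.4, 25.1, 25.7 and 22.7, all above the unstimulated libraries, for a change of 0.55 ± 0.15 (adjusted p = 0.00861 by limma). Without unstimulated replicate 4 it was 0.44 and no longer passed (adjusted p = 0.103). At −18.960 kb OSM libraries lay between 1.86 and 3.15, above the unstimulated ones at 0.710, 0.999, 1.56 and 0.802, for 1.02 ± 0.33 (adjusted p = 0.0445 by limma). This call was lost without any 1 of unstimulated replicates 1, 2 and 4 or OSM replicates 1 to 3, with adjusted p between 0.0722 and 0.145. With library totals or a median of ratios as scaling, only the peak at −21.549 kb was called. In the stretch from the start to 5 kb, OSM changes lay between −0.53 and 0.31 and none passed, and at the promoter peak the interval was −0.28 to 0.89.

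**Figure D4:**
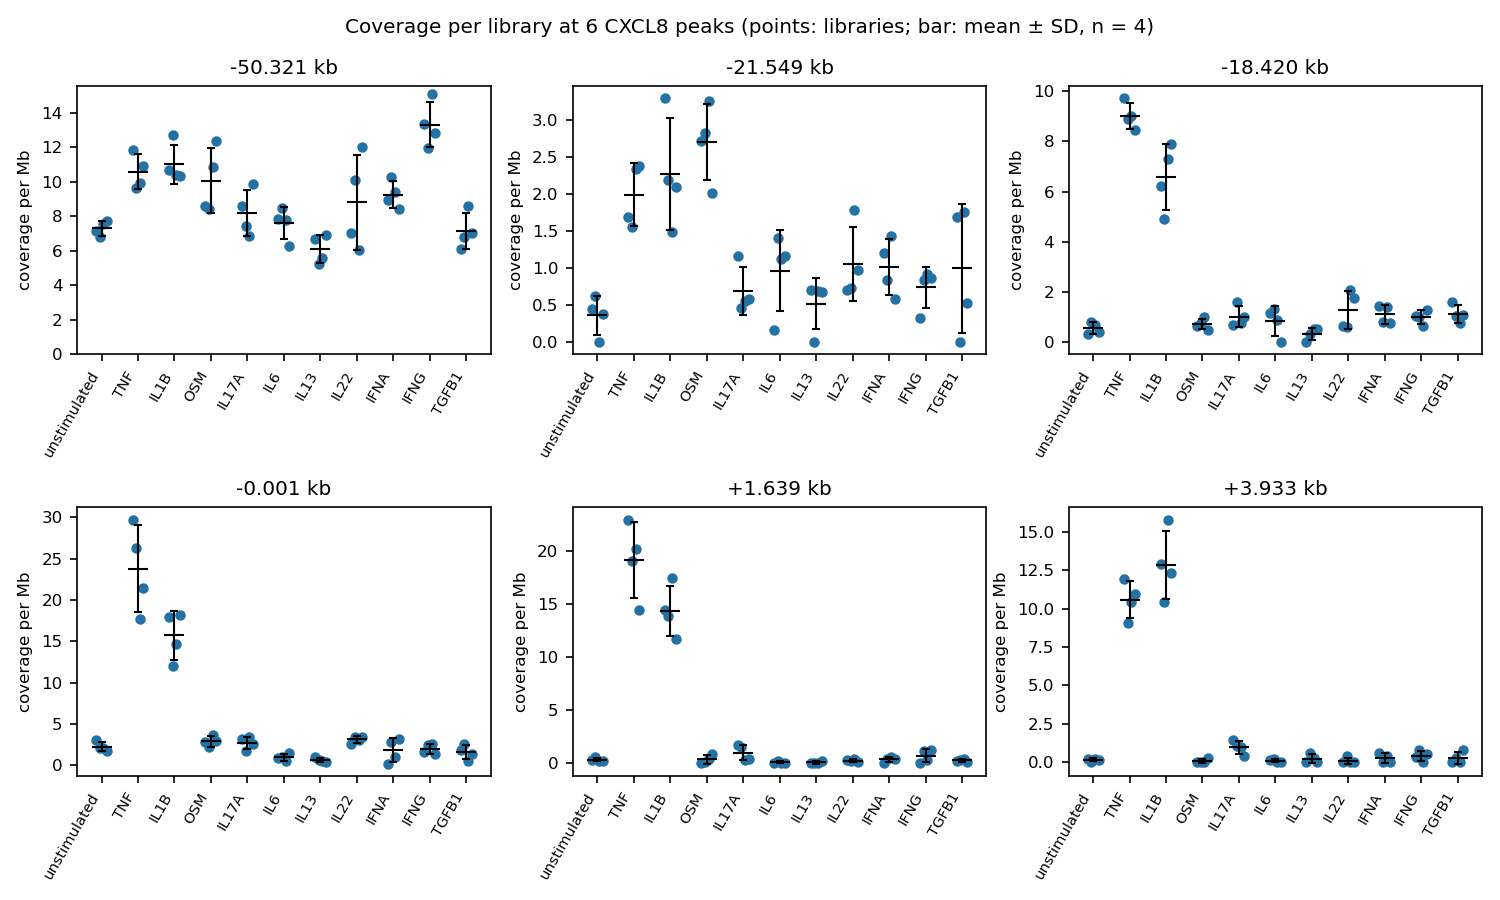
Coverage per Mb in each of the 44 libraries (points) with mean ± SD (n = 4) by group at 6 CXCL8 peaks. TNF and IL1B are far above the other groups at −18.420, −0.001, 1.639 and 3.933 kb, OSM has the highest mean at −21.549 kb (2.70) and IFNG at −50.321 kb (13.3).

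IL-13, the type 2 cytokine that signals through STAT6, lowered the promoter peak. Its libraries held 1.02, 0.617, 0.469 and 0.452 coverage per Mb, all below the lowest unstimulated library at 1.74, and 2 of the 4 were at the floor. The change was −1.27 ± 0.30 (95% interval −1.86 to −0.69, adjusted p = 0.00490 by limma), and it lay between −1.42 and −1.14 when any 1 library was left out, past the threshold each time. Over all tested peaks IL-13 raised 0.756% and lowered 0.645%. The promoter peak was the only CXCL8 peak lowered past the threshold by any of the 10 cytokines. Without unstimulated replicate 1, OSM also lowered the peak at 11.016 kb (−1.29, adjusted p = 0.0330 by limma), against −0.93 with all libraries (adjusted p = 0.122). No other peak from the start to 5 kb passed under IL-13, with changes from −0.55 at 1.639 kb to 0.22 at 2.212 kb, where unstimulated cells were already at or near the floor. At the other promoter-class peak, −0.578 kb, IL-13 libraries (mean 0.447) overlapped the unstimulated ones (mean 0.623), and the change did not pass.

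IL-6 libraries at the promoter peak were also all below the unstimulated ones, at 0.901, 1.06, 0.497 and 1.53, but the change of −0.90 ± 0.30 did not pass (95% interval −1.48 to −0.31, adjusted p = 0.279 by limma). IL-6 libraries ranged from 149 to 745 Mb of coverage, and the shallowest, replicate 4, held the 1.53. Replicates 3 and 4 were at the floor. By group mean the promoter peak ran from TNF (23.8) and IL-1β (15.7) to IL-22 (3.13), OSM (2.89), IL-17A (2.70), unstimulated (2.24), IFNγ (1.99), IFNα (1.82), TGF-β1 (1.59), IL-6 (0.998) and IL-13 (0.640). Only the step from IL-1β to IL-22 separated neighbours in this order without overlap of their libraries.

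IL-13 also raised a weak distal peak at −46.530 kb, with 1.68, 1.40, 1.18 and 1.29 against 0.712, 0, 0 and 0.406 in unstimulated libraries. The change was 1.38 ± 0.38 (adjusted p = 0.0325 by limma), and 3 of the 4 unstimulated libraries were at the floor. The call was lost when any 1 of the IL-13 replicates, or unstimulated replicate 2 or 3, was left out (adjusted p between 0.0530 and 0.167). Group means at this peak put IL-13 first and IL-22, at 0.823, second.

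IFNγ, the type II interferon, raised the outermost upstream peak. At −50.321 kb (73689998 to 73690498) its libraries held 13.3, 12.0, 15.1 and 12.8 against 7.12, 6.80, 7.54 and 7.69, without overlap. The change was 0.82 ± 0.20 (95% interval 0.44 to 1.21, adjusted p = 0.00436 by limma) and ran from 0.76 to 0.87 in leave-one-out fits, past the threshold each time. IFNγ raised 1.33% and lowered 0.232% of all tested peaks. IFNα, a type I interferon, gave 8.92, 10.3, 9.38 and 8.42 at the same peak, also above all unstimulated libraries, with a change of 0.32 that did not pass (−0.06 to 0.71, adjusted p = 0.675 by limma). The rise was not particular to interferons. IL-1β, TNF and OSM libraries were also all above the unstimulated ones, with means of 11.0, 10.6 and 10.1 against 9.25 for IFNα. IL-1β libraries overlapped those of IFNγ. With a median of ratios, or a minimum mean of 1 coverage per Mb, IL-1β reached the cut-off at this peak. The peak held 1 AP-1 match and 1 match to the interferon-response string GAAANNGAA, which 18.7% of all peaks held. Without IFNγ replicate 1, a second peak, at −5.761 kb, passed with 1.24 (adjusted p = 0.0284 by limma).

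TGF-β1, a profibrotic cytokine, raised 1 CXCL8 peak, at 16.228 kb, from 0.272, 0.190, 0 and 0.224 to 0.878, 1.44, 0.810 and 1.19. All 4 unstimulated libraries were at the floor. The change was 1.24 ± 0.37 (adjusted p = 0.0317 by limma). It was lost without TGF-β1 replicate 2 or 4 or unstimulated replicate 2 or 3, with adjusted p up to 0.138. A pseudocount of 0.1 also lost it (adjusted p = 0.124 by limma), and a minimum mean of 1 coverage per Mb left the peak out. In those fits 1 other peak was called in its place, at 37.251 and −5.761 kb respectively. Over all tested peaks TGF-β1 raised 1.1% and lowered 2.87%. At −5.761 kb its libraries, 1.39, 1.90, 4.48 and 2.26, were above the unstimulated ones, with a change of 0.97 just outside the threshold (adjusted p = 0.0539 by limma).

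IL-17A, IL-6, IL-22 and IFNα called no CXCL8 peak. IL-17A raised 0.0275% and lowered 0.00295% of all tested peaks, IL-6 0.0344% and 0.0302%, IL-22 0.0803% and 0.00368%, and IFNα 0.356% and 0.295%. At an unadjusted p below 0.05, limma gave 3 CXCL8 peaks higher and 2 lower under IL-17A, 4 and 1 under IL-6, 4 and 1 under IL-22, and 1 and 3 under IFNα. Under IL-17A, which signals through ACT1 to NF-κB, changes were above 0 at 9 of 9 peaks from the start to 5 kb, from 0.03 to 1.15 with a median of 0.21. The median over all tested peaks was −0.01, and the share of them above 0 was not worked out. The 9 peaks lie side by side and share the same libraries, so they are not separate observations, and a link to NF-κB was not tested. At 3.933 kb the IL-17A libraries held 1.43, 1.06, 0.953 and 0.376, all above the unstimulated ones at the floor, for 1.15 ± 0.39 (95% interval 0.39 to 1.91, adjusted p = 0.520 by limma). At 1.639 kb they held 1.66, 1.50, 0.308 and 0.405, overlapping the unstimulated libraries.

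TNF and IL-1β held the first 2 places by group mean at 26 of the 44 peaks and at 19 of the 20 raised ones, the exception being the peak at −21.549 kb, where OSM was first. The share over all peaks was not worked out, and the locus was chosen on these values, so nothing is read from these counts. Summed over the locus, TNF had 270 ± 15.3 coverage per Mb, IL-1β 242 ± 22.7, OSM 89.9 ± 5.70, IFNγ 81.3 ± 3.38, IL-17A 80.0 ± 4.55, IL-22 79.5 ± 3.12, IFNα 75.9 ± 9.36, TGF-β1 71.7 ± 3.70, IL-6 70.6 ± 3.53, unstimulated 69.3 ± 5.32 and IL-13 62.4 ± 3.95. OSM libraries, from 82.9 to 94.6, were all above the unstimulated ones, from 64.9 to 77.0. Levels are divided by a composition factor, which was 0.861 to 0.920 in OSM libraries and 1.00 to 1.06 in unstimulated ones. This raises the OSM sums, and sums under other scalings were not worked out, so the separation is given for this scaling only. Over the 14 peaks beyond 5 kb, OSM was instead the lowest group, at 4.96 ± 0.797, and its libraries (at most 5.94) were all below the unstimulated ones (at least 6.00, mean 7.36 ± 1.95). Of all tested peaks, OSM libraries were all above the unstimulated ones at 7.35% and all below at 5.18%, with a median change of −0.10. Peaks without coverage made up 9.64% to 17.0% of the table in OSM libraries and 3.53% to 10.9% in unstimulated ones. Whether the lower sum is particular to this locus was not tested.

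Other CXC chemokine genes of the cluster lie downstream. CXCL1, CXCL2, CXCL3, CXCL5 and CXCL6 encode chemokines that, like CXCL8, act on CXCR2. Within 500 kb of the CXCL8 start, TNF raised 12 of 46 CXCL1 peaks, 7 of 43 CXCL2 peaks, 8 of 21 CXCL3 peaks, 1 of 8 CXCL5 peaks and 1 of 9 CXCL6 peaks, and IL-1β raised 10, 8, 6, 3 and 2. The largest change at each gene was 2.67 (CXCL1, TNF), 2.87 (CXCL2, IL-1β), 2.17 (CXCL3, IL-1β), 2.37 (CXCL5, IL-1β) and 1.27 (CXCL6, TNF), all below the 4.97 at CXCL8. These comparisons share their unstimulated libraries with those of CXCL8 and are set side by side only. Over all 136 peaks of the 7 neighbouring CXC genes with a peak, of 8 listed, TNF raised 29 and IL-1β raised 30, with median changes of 0.27 and 0.26. Of 128 peaks at 8 flanking genes that encode no chemokine, 13 rose under TNF and 14 under IL-1β, with medians of 0.18 and 0.24. Over all tested peaks TNF raised 2.68% and IL-1β 1.44%, with median changes of −0.02 and 0.01.

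**Figure D5:**
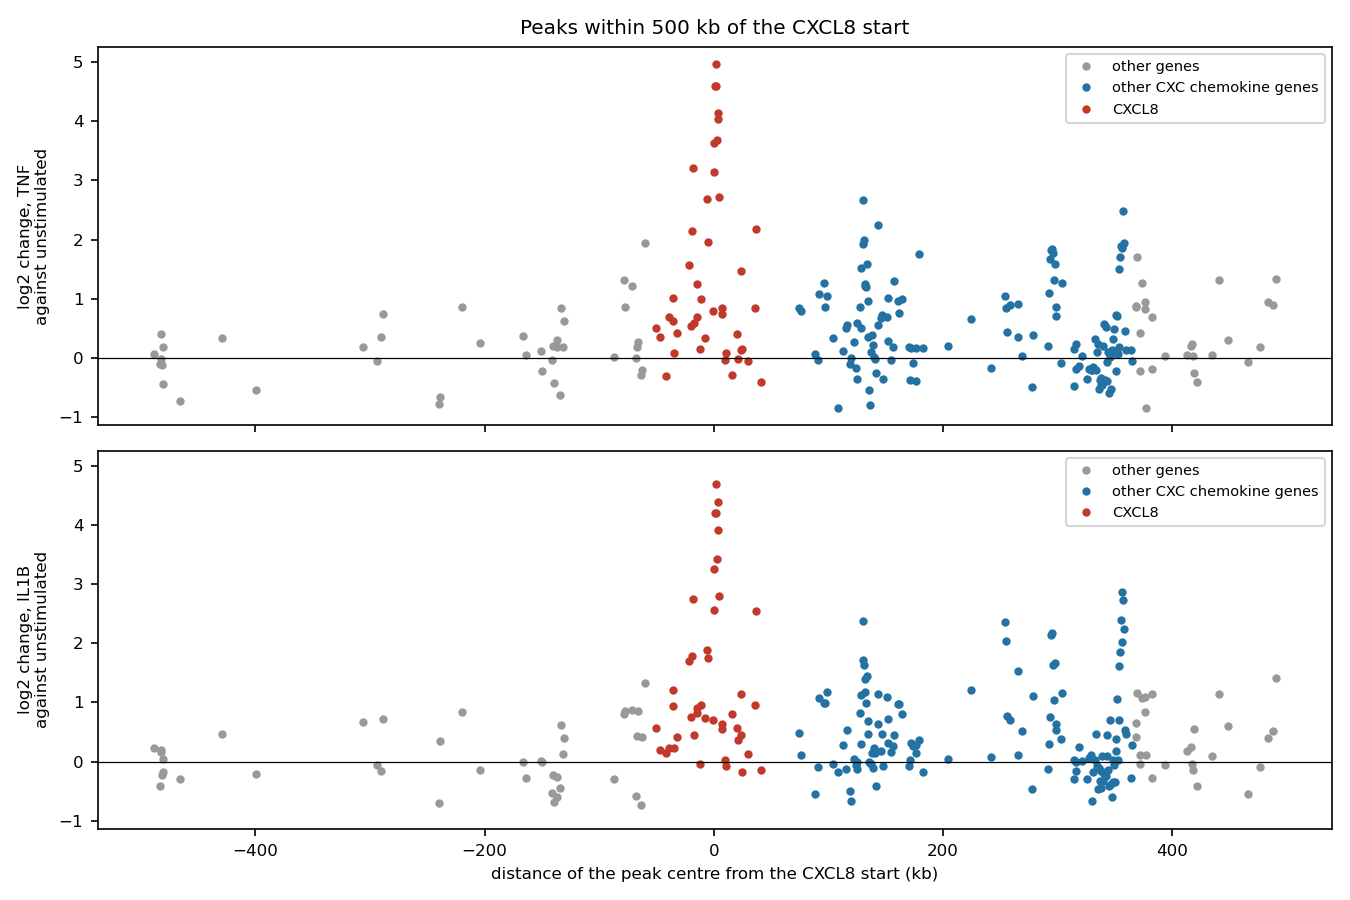
Log2 change against unstimulated cells under TNF (above) and IL1B (below) for peaks within 500 kb of the CXCL8 start, by distance of the peak centre in kb. CXCL8 peaks are red, peaks of the other CXC chemokine genes blue and others grey. Red points reach 4.97 and 4.70, and blue points reach at most 2.67 under TNF and 2.87 under IL1B.

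RASSF6, on the far side of CXCL8 from the cluster, had 23 peaks in this window, of which TNF raised 4 and IL-1β raised 2. Its peak at −60.454 kb, the nearest to CXCL8, changed by 1.94 and 1.32. At MTHFD2L, past CXCL2, TNF raised 5 of 22 peaks and IL-1β raised 6.

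Genes of the pathway from the receptors to CXCL8 showed smaller changes at their promoter-class peaks. Of 23 such peaks at 8 genes for NF-κB subunits and feedback inhibitors, TNF raised 4 (median change of the 23 peaks 0.39), at NFKB1 (1.06), NFKBIZ (0.98), NFKBIA (0.84) and TNFAIP3 (0.83), IL-1β raised none (median 0.26), and OSM raised 2, at NFKB1 (0.70) and RELA (0.68). Promoters of the receptors of TNF and IL-1 (8 peaks, medians −0.07 and 0.01) had none past the threshold under either, while OSM raised 1 at TNFRSF1A (0.63) and TGF-β1 lowered 1 at IL1RAP (−0.46). Among 16 peaks of adaptors and kinases, 1 at MYD88, the adaptor of IL-1 receptors, fell by 0.85 under TNF. Outside TNF and IL-1β, IFNγ raised 1 of the 16, at TRAF2 (1.51), OSM raised 1, at RIPK1 (0.59), and TGF-β1 lowered 2, at MYD88 (−0.86) and CHUK (−0.71). Of 15 peaks at AP-1 and C/EBP genes, with medians of −0.25 for TNF, −0.17 for IL-1β and 0.37 for OSM, TNF lowered 5 (FOS, FOSL2 and JUNB) and raised 1 (FOSL1, 0.45), IL-1β lowered 2 (FOSL2 and JUN) and OSM raised 6, up to 0.61 at FOS. TGF-β1 lowered 3 of the 15 (FOSL2 and JUN) and IFNγ lowered 1 (JUN, −0.69). Only 1 of the 3 receptor genes for CXCL8 had a promoter-class peak, and neither of its 2 peaks passed under any of these cytokines. Over all tested peaks of any class, TNF raised 2.68% and lowered 1.46%, IL-1β 1.44% and 1.75%, and OSM 4.12% and 1.05%. IFNγ raised 1.33% and lowered 0.232%, and TGF-β1 1.1% and 2.87%. Shares over promoter-class peaks alone were not worked out, so nothing is read from these counts. The lists were not refitted with library totals or a median of ratios as scaling. Under those scalings the OSM median over all peaks was −0.21 and −0.22, against −0.10.

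The pattern of the 1.639 kb peak over the 11 groups was compared with that of 168718 other peaks, more than 500 kb away and with a range of at least 1 on the log2 scale. Those most like it by Pearson's r over the 11 group means lay at LOC100130476 (r = 0.985), XXYLT1-AS2 (0.983), IL20RB (0.983), DIP2C (0.982), ACBD6 (0.980), WDR66 (0.979), TM9SF4 (0.979), IL24 (0.979), STARD13-AS (0.978) and RNF114 (0.977). All points come from the same libraries, and r is given as a description. TNF changes at those peaks ran from 1.20 (DIP2C) to 3.67 (WDR66). Within the locus, the other 8 peaks from the start to 5 kb had r from 0.955 to 0.990 with it, the peak at −18.420 kb 0.968 and the peak at −21.549 kb 0.598.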

How the data were processed

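ATAC-seq libraries (44; 11 groups of 4) were prepared by the Omni-ATAC protocol, and the authors processed paired-end reads with the ENCODE ATAC-seq pipeline on hg38. In the deposited table each value is a signal: the coverage of a 500-base peak, added up over its bases and not scaled to depth. The study's methods describe bulk ATAC-seq peaks of varying length, and peaks fixed at 500 bases for its single-cell ATAC-seq of tissue. Which samples the peaks of this table were called in is not given in the sources used here, nor whether coordinates count from 0 or 1. They are printed as deposited. Columns were matched to samples by library number (44 of 44).

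Coverage was divided by each library's total and by a composition factor, the trimmed mean of log2 ratios to the average library (30% of ratios and 5% of means cut at each end). Peaks with a log2 mean under −3 were left out (227). The fit was limma 3.58.1 (R 4.3.3) on log2(coverage per Mb + 0.5) with group means over all libraries, an empirical Bayes trend and Benjamini-Hochberg adjustment over 407156 peaks. The unit is coverage, so no count model was used. The code was tested on simulated data. Motif strings and GC were read from hg38.

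All 44 peaks are in the plot of peaks by library and in the counts, but some are not named singly in the text. Other genes come from lists or from likeness to the CXCL8 peak with the widest range of group means. For likeness, the 10 highest r were taken among peaks with a range of at least 1 on the log2 scale. The locus and the lists were chosen with earlier results of these data known. Labels do not say whether replicates were separate cultures, so p-values measure the spread between these libraries, which may be technical. Alternatives tried were pseudocounts of 0.1 and 2, other scalings and filters, quality weights, pairwise fits, a replicate block and leaving out each library. All 10 cytokines share the same unstimulated libraries.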

Additional observations from a re-analysis of the deposited data

Results flagged for a closer look

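At the CXCL8 peaks, 10 of 182 groups of 4 libraries had 1 library set apart from the other 3 by Dixon's criterion, which flags about 1 in 20 groups by chance. At −21.549 kb, IL-13 replicate 2 held 0 coverage per Mb and IFNγ replicate 1 held 0.323, each the lowest of its group. At −18.960 kb, IL-1β replicate 1 was lowest at 3.21 and IL-17A replicate 1 at 0.755. At −5.761 kb, IL-22 replicate 4 was lowest at 0.499, and at −5.203 kb IL-13 replicate 4 was highest at 2.93. In the gene and its 3′ flank the library apart was the highest each time: IL-6 replicate 2 at 2.212 kb (0.493), IFNγ replicate 4 (0.697) and TNF replicate 1 (12.0) at 3.397 kb, and OSM replicate 3 at 4.847 kb (0.901).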

How the results depend on the processing

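Leaving aside fits without 1 library, 88 of 99 counts of called CXCL8 peaks under an alternative stayed within 1.5 times the reported count and 11 did not. OSM called 1 peak in place of 3 with library totals only or a median of ratios as scaling, which moved the OSM median over all peaks from −0.10 to −0.21 and −0.22. IL-13 called 1 in place of 2 with a pseudocount of 0.1, a mean of at least 1 per Mb, or a fit on the 2 groups alone, each time without the peak at −46.530 kb. TGF-β1 called 3 in place of 1 with library totals, a median of ratios or array quality weights, and 2 in the fit on its 2 groups, gaining −5.761 kb, 37.251 kb or both. With a pseudocount of 0.1 or a mean of at least 1 per Mb it still called 1, but another peak. IL-1β against TNF called 1 with a pseudocount of 2 and 2 in the fit on the 2 groups, in place of 0. Causes were not tested.

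Leaving out single libraries gave 1 to 3 called peaks for OSM (1 without unstimulated replicate 4), 1 to 2 for IL-13, 1 to 2 for IFNγ, 0 to 2 for TGF-β1, 0 for the other tested comparisons, and 18 to 20 past the cut-off for TNF and for IL-1β, which is a description. TGF-β1 called 0 without TGF-β1 replicate 2 or 4 or unstimulated replicate 3. Changes at nearly closed peaks moved with the pseudocount: at 2.212 kb TNF gave 6.84 with 0.1 and 3.21 with 2. Same-numbered libraries of different groups did not deviate together (median r 0.0027, −0.0709 to 0.0475). No shared shift by replicate number was thus seen, which cannot show whether such libraries were prepared together. The replicate block left the counts at 3 for OSM, 2 for IL-13, 1 for IFNγ and for TGF-β1 and 20 for TNF and for IL-1β. Depth and coverage near the floor limit the precision in the gene body.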
